A study of Homo sapiens with 4 samples.

Results

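The 10 genes described here are ESAM, ERG, MYCT1, KDR, TEK, ROBO4, EGFL7, CDH5, PECAM1 and TIE1, which are known as genes of endothelial cells, the lining of blood vessels. They were picked by name out of 57820 counted gene identifiers, with earlier results of the comparison of TD with A549 cells in view, so their own change is given as a description, with no test. The counts hold 9 of the 10, since no identifier was paired with PECAM1, which is not analysed here. TD cells are A549 cells, an established human lung adenocarcinoma line of epithelial morphology, given the cytokine TGF-β (transforming growth factor beta) each 3 days, at 2 ng/ml, and described as having a mesenchymal-like form. A549 cells are the parental line, for which no TGF-β is given, and both grew in DMEM with 10% FBS and gentamycin. RNA was measured in 2 TD libraries, of 28237849 and 44133836 gene counts, and in 2 A549 libraries, of 26729278 and 29381872. Whether replicates are separate cultures is not stated, so the p-values below measure only how far these libraries differ, and that spread may be technical.

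Endothelial cells are held together by adhesion molecules of their own, among them VE-cadherin (CDH5), ESAM and PECAM1. They read vascular growth signals through the tyrosine kinase receptors KDR (a VEGF receptor), TEK and TIE1 (the angiopoietin receptor system), and through ROBO4, a guidance-type receptor that stabilises vessels. Their identity is kept by ETS-type transcription factors, of which ERG is one of the most abundant in mature endothelium. EGFL7 is a protein secreted into the matrix around vessels, and MYCT1 is a small membrane protein found mainly in endothelium.

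The label "endothelial" was checked first, on 8 defining markers outside the 10 genes: VWF, CLDN5, CD34, EMCN, PLVAP, ECSCR, ICAM2 and CLEC14A. In TD they summed to 3 and 6 counts per library, with 5 of the 8 at 0 in each, against 14 and 9 counts in A549, with 3 and 5 at 0. VWF, the blood-clotting factor stored in endothelium, had 0 counts in both TD libraries, and 1 and 0 in A549. CLDN5, the tight junction protein of vessels, had 1 and 4 counts in TD, and 8 and 4 in A549. CD34 had 1 and 1 counts in TD, and 3 and 3 in A549. These 8 markers were thus near 0 in every library. Some other endothelial genes, less restricted to vessels, were well counted in both lines, such as the protein C receptor PROCR at 98.0 CPM in TD and 142 CPM in A549, and thrombomodulin (THBD) at 6.09 CPM in TD and 6.44 CPM in A549. The genes are therefore called endothelial-type for what they are known for elsewhere, not for a cell type found here. In bulk RNA, a few cells with much of an RNA and many cells with little of it cannot be told apart.

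Among the 9 counted genes, MYCT1 and ESAM were well counted in TD and near 0 or low in A549, and EGFL7 was at a like level in both. ERG, KDR, TEK and ROBO4 were counted in TD below 1 CPM (counts after scaling for library depth), against at most 2 counts in an A549 library, and CDH5 and TIE1 had at most 3 counts anywhere. By CPM on the TMM scale (a scaling that makes libraries comparable), both TD libraries lay above both A549 libraries for 6 of the 9 genes. The same was true of 24.7% of the 35207 genes with a count in any library, and because the 10 were chosen on this contrast nothing is read from that share. The sum of the 9 genes was 58.1 and 67.4 CPM in TD, against 24.0 and 20.6 CPM in A549. Most of this summed depth came from MYCT1, ESAM and EGFL7, with 96.9% and 97.6% of the counts in TD, and 99.3% and 99.8% in A549, shares that depend on gene length as well as level.

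**Figure D1:**
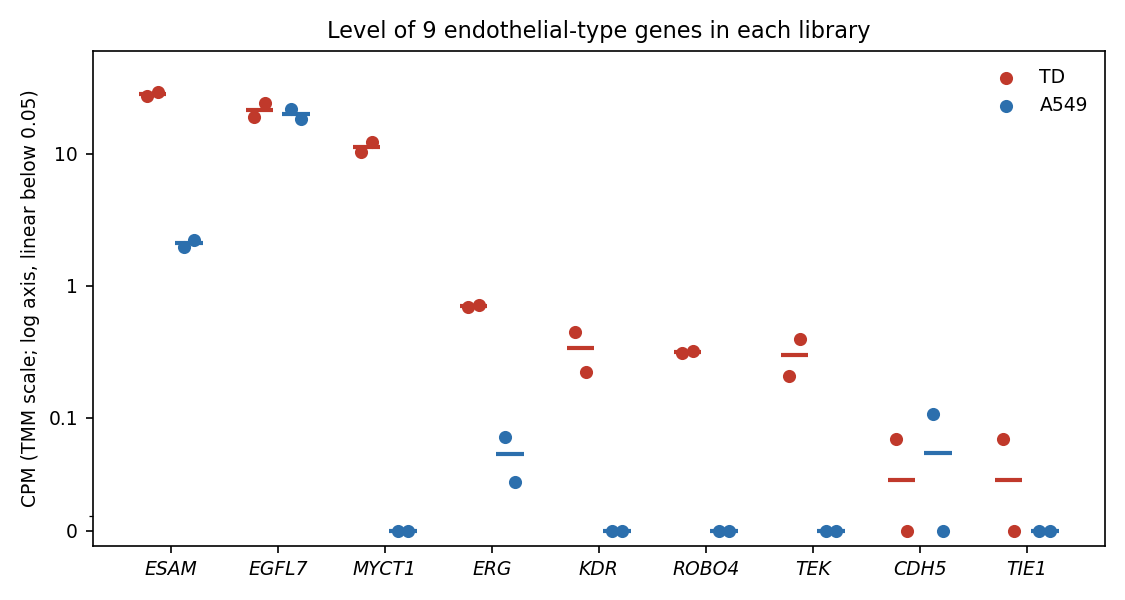
Points give each library's level in CPM (TMM scale, log axis that is linear below 0.05) for the 9 counted genes, TD in red left of A549 in blue, and bars mark the mean of 2 libraries. ESAM, MYCT1, ERG, KDR, ROBO4 and TEK lie higher in both TD libraries, EGFL7 overlaps between the lines, and CDH5 and TIE1 lie at or near 0.

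ESAM (ENSG00000149564, chromosome 11), an immunoglobulin-type adhesion molecule of endothelial tight junctions, was the most abundant of the genes in TD. It had 789 and 1192 counts in the TD libraries, and 55 and 66 in the A549 libraries. In CPM this was 28.3 ± 1.50 in TD and 2.10 ± 0.176 in A549 (SD, n = 2 each), a fitted log2 change of 3.75 (SE 0.12). Both TD libraries lay far above both A549 libraries, and ESAM was present, if low, in the parental cells. An antisense gene, ESAM-AS1, overlaps it and had 26 and 30 counts in TD, and 16 and 11 in A549. The library kit kept strand, per the labels, but the strand setting of the counting is not given in the sources used here, so reads of this pair could be exchanged, although the antisense counts were small beside those of ESAM in TD.

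CDH5 (ENSG00000179776, chromosome 16), VE-cadherin, the adherens junction cadherin that defines endothelium, stayed at the limit of counting. Its 2 and 0 counts in TD stood against 3 and 0 in A549, a ratio by counts of 0.55 with a 95% exact counting interval of 0.0459 to 4.80. The lines overlapped, and no change of CDH5 was detectable at this depth. In a library, a count of 0 allows up to 3 counts, which is 0.0680 to 0.112 CPM here, and such limits and intervals cover counting error only. Each fold given below as at least a value puts 3 counts in place of a group's 0. It takes the other group's counts as exact, and so leaves out their counting error, which is large where counts are few.

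MYCT1 (ENSG00000120279, chromosome 6) was counted in TD alone. It had 297 and 501 counts in TD and 0 and 0 in A549, which is 11.3 ± 1.47 CPM in TD (SD, n = 2). With 3 counts over the group in place of the 0, it was at least 219.5-fold higher in TD. A processed pseudogene lying within the gene, HSPD1P16, had 12 and 1 counts in TD, and 14 and 12 in A549; as a pseudogene it shares sequence with its parent gene, so its own counts are uncertain.

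ERG (ENSG00000157554, chromosome 21), the ETS factor, had 20 and 29 counts in TD, and 2 and 1 in A549. Its level was 0.701 ± 0.0169 CPM in TD and 0.0528 ± 0.0270 CPM in A549 (SD, n = 2 each). The ratio by counts was 13.5, with a 95% exact counting interval of 4.35 to 67.6. The TD libraries did not overlap with the A549 libraries, but ERG stayed below 1 CPM in both lines.

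The receptors were counted in TD alone, and sparsely. KDR (ENSG00000128052, chromosome 4), the main signalling receptor for VEGF, had 13 and 9 counts in TD and 0 and 0 in A549. TEK (ENSG00000120156, chromosome 9), the angiopoietin receptor, had 6 and 16 counts in TD and 0 and 0 in A549. ROBO4 (ENSG00000154133, chromosome 11) had 9 and 13 counts in TD and 0 and 0 in A549. Each of these 3 receptors summed to 22 counts over the TD libraries. Each was at least 6.05-fold higher there, with 3 counts over the A549 group in place of 0 and the 22 taken as exact. TIE1 (ENSG00000066056, chromosome 1), the orphan partner of TEK, had 2 and 0 counts in TD and 0 and 0 in A549, which gives no fold. Together the 4 receptors held 30 and 38 counts in the TD libraries and 0 and 0 in the A549 libraries.

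EGFL7 (ENSG00000172889, chromosome 9), the secreted vessel protein and host gene of the microRNA miR-126, was already expressed in parental cells. It had 18.9 and 24.1 CPM in the TD libraries, and 21.9 and 18.3 CPM in the A549 libraries, with means of 21.5 ± 3.68 CPM in TD and 20.1 ± 2.53 CPM in A549 (SD, n = 2 each). The libraries of the lines overlapped, and the fitted log2 change was 0.10 (SE 0.16). Its sign rested on the libraries used, since it was -0.09 without TD replicate 2, -0.05 without A549 replicate 2 and 0.28 without TD replicate 1. EGFL7 was therefore not a gene that appeared in TD.

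To rank the 9 genes against each other, levels were taken per kilobase of exon, as TPM, which scales each library to the same total. In TD the order was ESAM at 26.9 ± 0.954 TPM, EGFL7 at 23.3 ± 1.94 TPM and MYCT1 at 10.3 ± 0.438 TPM (SD, n = 2). ERG at 0.257 ± 0.0166 TPM came next, followed by TEK at 0.171 ± 0.0612, KDR at 0.145 ± 0.0806 and ROBO4 at 0.125 ± 0.00837 TPM. CDH5 at 0.0168 ± 0.0237 and TIE1 at 0.0152 ± 0.0216 TPM were last. The libraries of ESAM and EGFL7 did not overlap, nor did those of ERG and TEK. The order of ERG and TEK rests on 20 and 29 against 6 and 16 counts, and counting error was not weighed in it. TEK, KDR and ROBO4 did not differ beyond the spread of their libraries, nor did CDH5 and TIE1. Among protein-coding genes ranked by mean TPM in TD, ESAM stood at percentile 80.5, EGFL7 at 78.1 and MYCT1 at 64.7, whereas ERG stood at 34.6 and ROBO4 at 30.7. In A549, EGFL7 led at 22.2 ± 3.79 TPM, followed by ESAM at 2.02 ± 0.0768 TPM. CDH5 at 0.0257 ± 0.0363 and ERG at 0.0198 ± 0.0109 TPM were far below, and the remaining 5 counted genes were at 0.

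The TD libraries could be compared with each other, a measure the choice of genes did not use. TD replicate 2 held 61.0% of all TD gene counts, or 58.4% on the TMM scale. It held 60.2% of the ESAM counts (95% exact interval 58.0 to 62.3), 59.2% of the ERG counts (44.2 to 73.0) and 59.1% of the ROBO4 counts (36.4 to 79.3), all close to these shares. KDR was at 40.9% (20.7 to 63.6) and TEK at 72.7% (49.8 to 89.3). In CPM, KDR was at 0.448 and 0.221, and TEK at 0.207 and 0.393, in TD replicates 1 and 2. With 22 counts each, KDR, TEK and ROBO4 have intervals that hold many splits and say little on whether the libraries agree. CDH5 and TIE1, with 2 TD counts each, were at 0% (0 to 84.2). MYCT1 was at 62.8% (59.3 to 66.1), which includes the share by totals and not that on the TMM scale. EGFL7 was at 64.1% (61.7 to 66.5), above both shares.

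To place the appearance in its background, protein-coding genes with at most 3 counts over both A549 libraries and at least 10 in each TD library were counted. There were 142 such genes among 19263, or 0.737%, against 190 with the mirror pattern, lost in TD. MYCT1 and ERG met this rule. By summed TD counts, MYCT1 ranked 13 and ERG 88 of the 142, whose median was 65.5 counts. ESAM lay outside it for its A549 counts, while KDR, TEK and ROBO4 lay outside it because 1 TD library of each had under 10 counts. Without any count allowed in A549, 43 genes were left, MYCT1 among them, and with at least 30 counts asked of each TD library, 66 were left, again with MYCT1.

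The start regions of the 3 genes that were at 0 in A549, were counted in both TD libraries and have a single RefSeq start are shown here, each 250 bases before to 50 after the start (build GRCh38.p14, 5′ to 3′ on the gene's strand). Capitals mark AGGAAG, a core bound by ETS factors such as ERG, and AGATAA, a core bound by GATA factors, on either strand; no 2 marked matches overlap.
MYCT1, chr6:152697696-152697995, plus strand: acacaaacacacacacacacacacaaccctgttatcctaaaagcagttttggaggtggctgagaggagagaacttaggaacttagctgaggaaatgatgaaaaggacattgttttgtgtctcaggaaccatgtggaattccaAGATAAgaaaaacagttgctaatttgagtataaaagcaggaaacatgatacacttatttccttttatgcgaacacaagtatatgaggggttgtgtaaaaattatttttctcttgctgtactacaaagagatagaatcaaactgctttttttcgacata
ROBO4, chr11:124897816-124898115, minus strand: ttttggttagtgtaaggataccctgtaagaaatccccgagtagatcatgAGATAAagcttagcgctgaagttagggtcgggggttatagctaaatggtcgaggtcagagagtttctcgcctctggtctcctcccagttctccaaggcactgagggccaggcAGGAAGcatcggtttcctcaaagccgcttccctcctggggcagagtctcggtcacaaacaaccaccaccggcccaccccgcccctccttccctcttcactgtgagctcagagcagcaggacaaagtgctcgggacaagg
KDR, chr4:55125546-55125845, minus strand: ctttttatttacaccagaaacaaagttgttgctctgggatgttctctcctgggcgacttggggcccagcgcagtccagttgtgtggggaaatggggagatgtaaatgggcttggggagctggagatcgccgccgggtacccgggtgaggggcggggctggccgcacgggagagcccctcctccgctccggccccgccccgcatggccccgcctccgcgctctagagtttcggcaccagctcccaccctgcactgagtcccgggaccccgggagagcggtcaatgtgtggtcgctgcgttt
The MYCT1 window held 1 AGATAA match and no AGGAAG match, and its GC content was 36.3%, below the bound of the lowest decile of all windows (39.0%). The ROBO4 window held 1 match of each core at 55.3% GC, and the KDR window held neither at 65.0% GC. RefSeq windows existed for 7 of the 10 genes, 12 windows in all because TEK, EGFL7 and ERG have several starts. An AGGAAG match was present in 6 of the 12 windows, from 4 genes, and an AGATAA match in 5, also from 4 genes, and 2 of the ERG windows cover nearly the same stretch. Among all 35116 windows, 33.65% held AGGAAG and 10.3% held AGATAA, so the first is common in any promoter. A match is a description of these letters and not a binding site.

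The next comparison asked whether other endothelial genes moved with the 10. Of 60 further endothelial genes, 57 had a row in the counts and 17 had enough counts to be tested. By edgeR's quasi-likelihood test with Benjamini-Hochberg adjustment over all 17785 tested genes, 4 of the 17 rose and 6 fell in TD. Across all tested genes 43% were called, 21.6% higher and 21.4% lower. Among protein-coding ones 50.6% were called, against 58.8% of the list. Over all tested genes the TD libraries differed more from each other than the A549 libraries did. The common biological coefficient of variation (spread between replicates) was 20.1% over all tested genes and 7.54% with protein-coding genes only. No fit without a library was run on protein-coding genes alone. Fits without an A549 library take their spread from the TD pair alone. The 3833 higher and 3809 lower calls became 2114 and 2236 without A549 replicate 1, 2241 and 2251 without A549 replicate 2, and 5329 and 6140 without TD replicate 1. The median log2 change of the list was -0.33, against -0.04 over all tested genes. Most of the list was not expressed: 40 genes were untested, of which 35 had under 10 counts in every library, 5 of these with 0 throughout. The 3 largest rises were PROX1, MCAM and AFAP1L1. PROX1, the master regulator of lymphatic endothelium, had 18 and 38 counts in TD, and 0 and 1 in A549, a ratio of 46.2 (95% exact counting interval 7.96 to 1857). Its call (adjusted p = 0.00847 by edgeR) was lost without A549 replicate 1 (adjusted p = 0.0577). MCAM, an adhesion molecule of endothelium and of pericytes, averaged 8.51 ± 0.770 CPM in TD and 0.719 ± 0.254 CPM in A549 (log2 change 3.56, SE 0.29, adjusted p = 0.000928 by edgeR). AFAP1L1, an actin-linked protein, averaged 15.9 CPM in TD and 2.56 CPM in A549 (log2 change 2.64, adjusted p = 0.00014 by edgeR). The fourth that rose was SHANK3, a scaffold protein also known from synapses, at 17.9 CPM in TD and 5.57 CPM in A549. Those that fell included TM4SF18, at 1.55 CPM in TD and 16.9 CPM in A549, and ICAM1, an inflammation-induced adhesion molecule, at 0.467 CPM in TD and 4.17 CPM in A549. NOSTRIN, which binds endothelial nitric oxide synthase, averaged 4.28 ± 0.382 CPM in TD and 37.1 ± 2.73 CPM in A549.

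**Figure D2:**
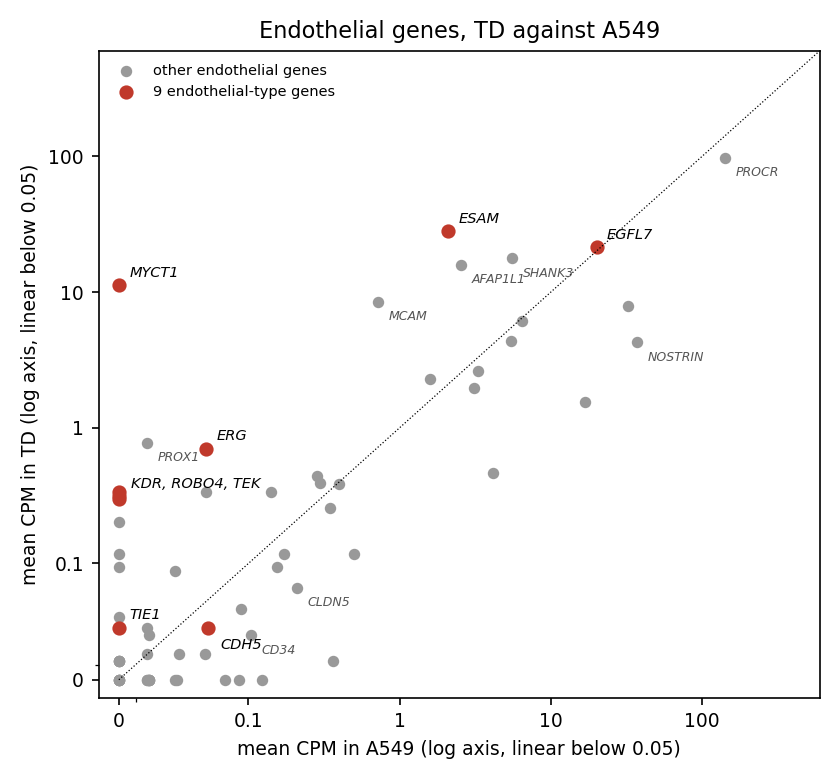
Each point is a gene, with its mean CPM in TD on the vertical axis and in A549 on the horizontal axis (log axes, linear below 0.05; the dotted line marks equal levels), the 9 endothelial-type genes in red and the 57 further endothelial genes in grey. MYCT1 and ESAM stand far above the line, while most of the further genes crowd near 0 or lie below it.

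Transcription factors known to specify endothelium went both ways. Of 19 such factors outside the ETS family, 12 were tested, 3 rose and 5 fell (edgeR, adjusted over all genes), with a median log2 change of -0.88. Among all tested genes 21.6% rose and 21.4% fell, and the median was -0.04. Of these factors 66.7% were called, against 50.6% of tested protein-coding genes. MECOM, a zinc finger factor, was at 5.64 CPM in TD and 0.987 CPM in A549 (log2 change 2.51, adjusted p = 0.00137 by edgeR). HEY1, a Notch target, was at 1.69 CPM in TD and 0.399 CPM in A549, and its call was lost without A549 replicate 1 (adjusted p = 0.0608 by edgeR). NFATC1 was at 6.04 CPM in TD and 2.53 CPM in A549. NR2F2, the factor of venous identity, was at 17.3 CPM in TD and 79.9 CPM in A549 (log2 change -2.20, adjusted p = 0.000353 by edgeR). EPAS1, the hypoxia factor HIF-2α that is abundant in endothelium, was at 211 CPM in TD and 721 CPM in A549. SOX17, of arterial endothelium, was at 0.753 CPM in TD and 2.59 CPM in A549 (adjusted p = 0.00901, and 0.0747 without A549 replicate 1, by edgeR). GATA2 was at 1.18 CPM in TD and 2.82 CPM in A549 (adjusted p = 0.0103, and 0.0738 and 0.0671 without A549 replicate 1 and 2, by edgeR). Without A549 replicate 1, 3 factors of the list fell. SOX18 had 11 and 14 counts in TD, and 1 and 5 in A549, and was not tested. TAL1 had 0 and 0 counts in TD, and 0 and 1 in A549, and SOX7 had at most 4 in any library.

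In the ETS family, to which ERG belongs, 20 of 25 other members were tested, 5 rose and 5 fell, with a median log2 change of 0.03. The share called was 50%, near the 43% over all tested genes and the 50.6% over protein-coding ones. FLI1, the closest relative of ERG and its partner in endothelium, was too low to test, with 7 and 9 counts in TD and 0 and 0 in A549, at least 4.40-fold higher in TD. ELK3, a factor of vessel growth, averaged 297 ± 18.0 CPM in TD and 41.6 ± 1.35 CPM in A549 (log2 change 2.84, SE 0.09, adjusted p = 6.19e-05 by edgeR). ETS1, abundant in activated endothelium, averaged 71.5 ± 0.377 CPM in TD and 19.7 ± 0.833 CPM in A549 (log2 change 1.86, adjusted p = 0.000112 by edgeR). ETS2, which lies next to ERG on chromosome 21, was at 221 CPM in TD and 74.3 CPM in A549 (log2 change 1.57). The epithelial ETS factors were among those that fell. ELF3 was at 0.711 CPM in TD and 146 CPM in A549 (log2 change -7.64), and SPDEF at 0.285 CPM in TD and 26.7 CPM in A549 (log2 change -6.52). ETV7, an interferon-inducible member, had 0 and 0 counts in TD, and 18 and 17 in A549, at least 14.1-fold lower in TD, a call lost without A549 replicate 1 or 2 (adjusted p = 0.124 and 0.111 by edgeR). Without either A549 library 3 members of the family fell. ETV2, which starts endothelial fate in the embryo, was at 1.03 CPM in TD and 0.944 CPM in A549 and was not called (adjusted p = 0.785 by edgeR).

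Ligands, co-receptors and signalling partners of the 10 genes, listed with some related ligands such as PGF and ANGPTL1, were mostly well expressed. Of the 29 in the list, 24 were tested, 11 rose and 4 fell, with a median log2 change of 0.33. By comparison, 21.6% of all tested genes rose and 21.4% fell, and their median was -0.04. In this list 62.5% were called, against 43% over all tested genes and 50.6% over protein-coding ones. Only 4 of the 11 rises were at least 2-fold, and 3 of the 4 falls were. VEGFA, the ligand of KDR, averaged 369 CPM in TD and 47.8 CPM in A549 (log2 change 2.95, adjusted p = 8.46e-05 by edgeR). ITGB3 and ITGAV, the chains of the integrin αvβ3 that is known to associate with KDR and to bind EGFL7, both rose. ITGB3 averaged 29.9 CPM in TD and 0.210 CPM in A549 (log2 change 7.13), and ITGAV 952 CPM in TD and 158 CPM in A549 (log2 change 2.59). SLIT3, a ligand of ROBO receptors, averaged 52.6 CPM in TD and 4.38 CPM in A549 (log2 change 3.59). JUP, plakoglobin, which binds cadherin tails including that of CDH5, averaged 14.1 CPM in TD and 91.9 CPM in A549 (log2 change -2.69). PGF, a ligand of FLT1, was at 0.637 CPM in TD and 1.65 CPM in A549. Its call was lost without A549 replicate 1 or 2 (log2 change -1.41 and -1.39). ANGPTL1, an angiopoietin-like secreted protein, had 1 and 0 counts in TD, and 10 and 13 in A549, a ratio of 0.0359 (95% exact counting interval 0.000871 to 0.221). The angiopoietins, ligands of TEK, were low in both lines. ANGPT1 was at 0.374 CPM in TD and 0.569 CPM in A549 and was not called (adjusted p = 0.348 by edgeR), and ANGPT2 had 9 and 12 counts in TD, and 9 and 5 in A549.

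Among paralogs of the 10 genes, 13 of 24 were tested, 8 rose and 3 fell, with a median log2 change of 1.49. Over all tested genes 21.6% rose and 21.4% fell, and the median was -0.04. Of these paralogs 84.6% were called, against 43% over all tested genes and 50.6% over protein-coding ones. Of the other VEGF receptors, FLT4 was at 4.34 CPM in TD and 5.48 CPM in A549 and was not called (adjusted p = 0.221 by edgeR), and FLT1 had 1 and 1 counts in TD, and 1 and 0 in A549. ROBO1 was at 218 CPM in TD and 77.5 CPM in A549 (log2 change 1.49, adjusted p = 0.000319 by edgeR). Among classical cadherins, CDH6 had 323 and 446 counts in TD, and 0 and 1 in A549, a ratio of 635 (95% exact counting interval 114 to 25097), and CDH2 and CDH4 also rose, at 187 and 31.0 CPM in TD against 0.485 and 0.155 CPM in A549. CDH1, the epithelial cadherin, fell (log2 change -6.00). JAM3, a junction molecule related to ESAM, was at 12.3 CPM in TD and 4.23 CPM in A549 (log2 change 1.54). The related F11R and CXADR, both epithelial junction molecules, were lower, CXADR at 1.18 CPM in TD and 28.9 CPM in A549 (log2 change -4.62). CSF1R, a receptor kinase of the KDR superfamily, was at 4.70 CPM in TD and 0.179 CPM in A549 (log2 change 4.71, SE 0.77, adjusted p = 0.00798 by edgeR), and its A549 libraries were uneven, with 9 and 1 counts.

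**Figure D3:**
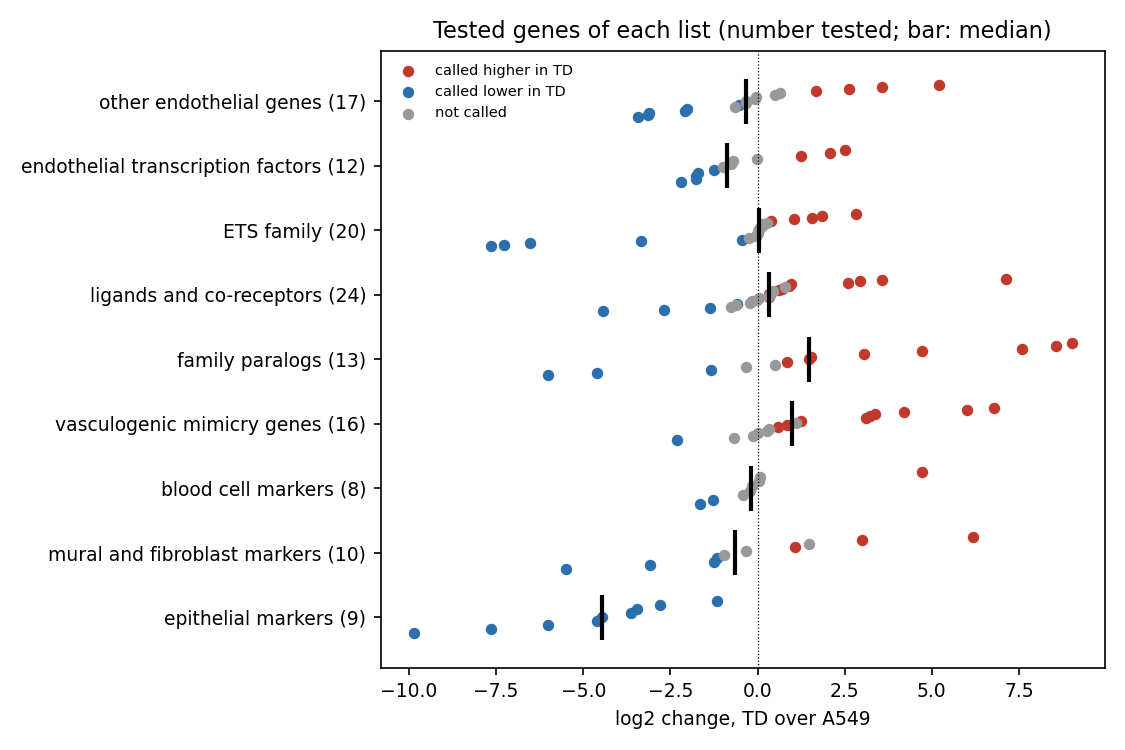
Each point is a tested gene, placed by its log2 change of TD over A549, with 1 row for each gene list, the number tested in brackets and a bar at the list's median. Points are red where called higher in TD, blue where called lower and grey where not called; the further endothelial genes and endothelial factors lie on both sides of 0, and the epithelial markers lie below it.

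Markers of other cell types were read beside these genes. For scale, 21.6% of all tested genes rose and 21.4% fell, with a median log2 change of -0.04. The share called was 43% over all tested genes and 50.6% over protein-coding ones. Of 20 blood cell markers, 8 were tested, 1 rose (CSF1R) and 2 fell, with a median log2 change of -0.19. Without A549 replicate 1 or 2 none of them fell, and DESeq2 called 0 lower as well, while limma-voom called 2. The calls that went were CD14 (adjusted p = 0.0490) and ITGA2B (adjusted p = 0.0340), by edgeR, and 1 marker rose in each of these settings. PTPRC, the common leukocyte antigen, had 4 and 3 counts in TD, and 0 and 2 in A549. The summed level of the list was 26.7 and 30.03 CPM in TD, and 27.1 and 25.5 CPM in A549, and 5 of its markers were at 0 in every library. Of 16 mural and fibroblast markers, 10 were tested, 3 rose and 4 fell, with a median log2 change of -0.65, and the list summed to 275 and 311 CPM in TD, and 246 and 217 CPM in A549. PDGFRB, the defining pericyte receptor, had 4 and 7 counts in TD, and 6 and 4 in A549. COL1A1, a fibrillar collagen, made up most of the TD sum at 278 CPM, against 3.79 CPM in A549. COL3A1, another fibrillar collagen, and KCNJ8, a potassium channel of pericytes, rose by 2.99 and 1.07 on the log2 scale. The call of COL3A1 was lost without A549 replicate 1 or 2 (adjusted p = 0.0802 and 0.137 by edgeR). That of KCNJ8 (adjusted p = 0.0476 by edgeR) was lost in 7 alternatives, with adjusted p of 0.240 and 0.146 without A549 replicate 1 and 2, and 0.167 by DESeq2. NOTCH3, LUM and ACTA2 fell on the log2 scale, with changes of -5.48, -3.10 and -1.24. Without A549 replicate 1 or 2, 1 marker of this list rose. All 9 tested of 13 epithelial markers fell (EPCAM, the epithelial adhesion molecule, was at 0.150 CPM in TD and 151 CPM in A549), and that list summed to 1731 and 2072 CPM in TD, and 15469 and 16272 CPM in A549. Whether cells of another type had a part in the endothelial-type counts was not tested, beyond these levels.

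The last comparison took position in the genome, which had no part in choosing the 10 genes. The 3 nearest protein-coding genes on each side of each gene gave 56 flanking genes, of which 39 were tested. Of these, 19 rose and 1 fell, with a median log2 change of 0.41, whereas among all tested protein-coding genes 3394 of 13208 rose and 3289 fell. Among the 19 were CDH8, CDH11, BEAN1 and TK2 near CDH5, ERN1 and DDX5 near PECAM1, CDC20 near TIE1, and INPP5E and SEC16A near EGFL7. Yet CDH5, TIE1 and EGFL7 showed no clear rise, and PECAM1 was not counted. The others lay near ESAM, ROBO4, TEK, ERG and MYCT1, and 8 of the 19 rose at least 2-fold. Without A549 replicate 2 the number that rose was 11. The number that fell was 0 without either A549 library and 2 without either TD library. MYCT1 lies between SYNE1 and VIP. VIP, which encodes a secreted neuropeptide, had 32 and 71 counts in TD and 0 and 0 in A549, at least 28.3-fold higher in TD (adjusted p = 0.00396 by edgeR). SYNE1, a nuclear envelope linker, averaged 40.9 ± 0.831 CPM in TD and 13.8 ± 1.22 CPM in A549 (log2 change 1.57, adjusted p = 0.000361 by edgeR). CDH5, itself near 0, lies between CDH11 and BEAN1. CDH11, a mesenchymal cadherin, averaged 148 CPM in TD and 18.0 CPM in A549 (log2 change 3.04), and BEAN1 averaged 24.5 CPM in TD and 0.103 CPM in A549 (log2 change 7.82, adjusted p = 6.24e-05 by edgeR). ESAM and ROBO4 are themselves neighbours on chromosome 11, with MSANTD2 and ROBO3 between them. MSANTD2 was at 5.94 CPM in TD and 5.69 CPM in A549 and was not called (adjusted p = 0.754 by edgeR). ROBO3 was at 8.32 CPM in TD and 4.63 CPM in A549 (log2 change 0.84, adjusted p = 0.00974, and 0.061 without A549 replicate 2, by edgeR). Next to TEK, LRRC19 fell to 0.0541 CPM in TD, against 0.503 CPM in A549, a call lost without A549 replicate 1 or 2 (adjusted p = 0.127 and 0.156 by edgeR). Beside KDR, none of the 3 tested flanking genes was called, and KIT, a related receptor kinase directly next to it, had 0 and 2 counts in TD, and 7 and 6 in A549.

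**Figure D4:**
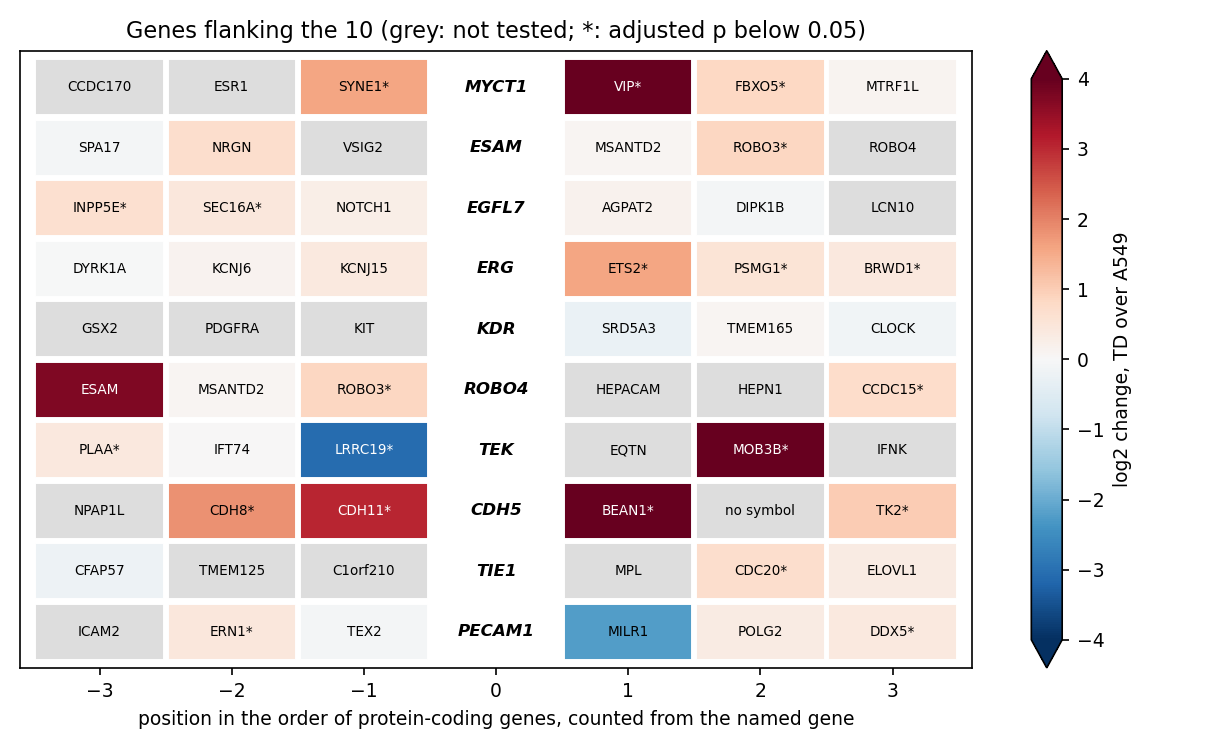
Each row is one of the 10 genes (position 0) with the 3 protein-coding genes on either side in genome order, coloured by the log2 change of TD over A549 (colour scale ends at 4 in either direction), grey where not tested and starred where the edgeR adjusted p was below 0.05. Red flanks surround MYCT1 and CDH5, and the flanks of KDR are pale or grey.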

How the data were processed

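The deposited files, 1 a library, give unnormalized whole-number counts by Ensembl gene, as the authors left them. Per the submitters' processing notes, FastQC 0.11.8, STAR 2.7.1a and HTSeq 0.11.2 were used with hg19. The strand setting and annotation release were not given in the sources used here. Reads given to no gene made up 17.0% to 18.6% of each file and entered neither library sizes nor tests. Symbols were paired with 52338 of 57820 identifiers; GENCODE 29, on another build, gave gene types, gene order and exon lengths only.

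TD was compared with A549 by edgeR 4.0.16 (R 4.3.3): quasi-likelihood test, TMM scaling, default expression filter (minimum count 10) and p-values adjusted after Benjamini-Hochberg over all tested genes, called at 0.05. It is the test behind every rise, fall and adjusted p given here. Of the 10 genes, 4 passed that filter (ESAM, MYCT1, EGFL7 and ERG), and no test is given for any of them. Log2 changes, TD over A549, carry their standard error (SE). The exact permutation test of 2 against 2 libraries cannot go below p = 0.333 and was not used. The main test was also run on simulated counts with the same spread in both groups, unlike these libraries, and nothing is read from it. The 10 genes, the 9 gene lists and the tests were chosen with earlier results of these data known. Genes named are the 10, the called members of each list with the 3 largest log2 changes in each direction, a fixed set of well-known vascular genes whatever their result, called genes next to one of the 10, and the genes closest to the mean profile of the 10. The 8 endothelial markers and the marker lists of other cell types were listed separately for checking the label. EPHA2, ETV2, ITGAV, JAM3, KIT, MMP14, MSANTD2, NODAL, PROCR, ROBO1, SHANK3, THBD and TWIST1 lie outside that rule and were chosen after their values were seen. A gene that the rule names is not reported here. Symbols GPIHBP1, GJA5 and EXOC3L2 had no row. Alternatives covered scaling (DESeq2 size factors, upper quartile, library totals), DESeq2 1.42.0, limma-voom (limma 3.58.1), filters, protein-coding genes only, thinning to the smallest library, a replicate block and leaving out each library.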

Additional observations from a re-analysis of the deposited data

How the results depend on the processing

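Of the values of named genes outside the 10 under the alternatives, 713 kept their direction and side of the threshold, 46 kept their direction and lost the call, and 0 reversed. Among log2 changes of the 10 genes, 50 stayed within 1 SE and 5 moved. Without TMM scaling the TD means of ROBO4 and ERG were 0.307 and 0.683 CPM. With at least 5 CPM asked in 2 libraries, which tests fewer genes, the calls were 3 endothelial factors lower, 2 ligands and co-receptors lower, 0 blood markers higher and 0 lower, 1 mural marker higher and 2 lower, 5 epithelial markers lower and 0 flanking genes lower. With protein-coding genes only, 8 endothelial factors, 2 mimicry genes and 2 flanking genes were lower. That setting called 4205 genes higher and 4232 lower of 13208, against 3394 and 3289 of these in the fit over all genes. Calls thus rose among protein-coding genes at large, and these counts are not read as a result about the lists. Limma-voom called 2 mimicry genes lower, with 3925 higher and 3994 lower calls over all genes. Without a filter 2 flanking genes were lower, with 4088 higher and 4452 lower calls among 35207 genes. Blood markers called lower were 0 with DESeq2, and 1 each on library totals, upper quartile scaling and thinned counts; 0 flanking genes were lower after thinning. The cause was not tested. Genes appearing in TD were 43 with 0 counts allowed in A549 and 66 with at least 30 counts in each TD library, with 1 of the 10 genes in each. Same-numbered libraries did not deviate together (r = -0.093 over 17785 genes). With 1 pair in each group this cannot show whether same-numbered libraries share a culture or batch, which is not stated. With the replicate block all genes gave 2964 higher and 2847 lower calls. In that fit 2 ligands and co-receptors were lower, 0 blood markers lower, 1 mural marker higher and 0 flanking genes lower. Leaving out 1 library at a time gave 2114 to 5329 higher and 2236 to 6140 lower calls over all genes; 3 to 4 and 4 to 9 for other endothelial genes; 2 to 3 and 3 to 6 for endothelial factors; 4 to 6 and 3 to 5 for ETS; 8 to 14 and 2 to 5 for ligands; 7 to 8 and 3 for paralogs; 8 to 12 and 1 to 2 for mimicry; 1 and 0 to 2 for blood; 1 to 4 and 3 to 6 for mural; 0 and 6 to 9 for epithelial; 11 to 23 and 0 to 2 for flanking genes. A lone library in such a fit is assumed to vary like the other group.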

Other observations

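Genes linked to vasculogenic mimicry, the forming of vessel-like channels by tumour cells themselves, were called higher more often than lower in TD. Of 18, 16 were tested by edgeR, 9 rose and 1 fell, with a median log2 change of 0.98. Over all tested genes the median was -0.04, and 21.6% rose and 21.4% fell. In this list 62.5% were called, against 50.6% of tested protein-coding genes. EPHA2, MMP14 and TWIST1 were not called (adjusted p = 0.0659, 0.0840 and 0.0709 by edgeR). NODAL had 2 and 2 counts in TD, and 1 and 2 in A549. Whether TD cells form such channels was not tested. MMP2, a gelatinase, averaged 205 CPM in TD and 1.84 CPM in A549 (log2 change 6.79). MMP9, the other gelatinase, had 19 and 31 counts in TD, and 1 and 1 in A549, a ratio of 20.6 (95% exact counting interval 5.42 to 175), a call lost without A549 replicate 1 or 2 (adjusted p = 0.0564 and 0.0566 by edgeR). TFPI, an inhibitor of clotting, fell to 9.38 CPM in TD, against 46.5 CPM in A549 (log2 change -2.31). Without TD replicate 1, 2 genes of the list fell.

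The protein-coding genes closest to the mean profile of the 9 counted genes over the 4 libraries, by Euclidean distance of log2(CPM + 0.5), included KIAA0408, HEY1, ZNF304 and HOXD10. KIAA0408 was at 1.59 CPM in TD and 0.436 CPM in A549, ZNF304 at 1.82 CPM in TD and 0.453 CPM in A549, and HOXD10 at 1.58 CPM in TD and 0.384 CPM in A549. With a pseudocount of 1, 0 of these genes remained among the closest, so the list is set by that choice.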
